A study of Schmidtea mediterranea with 12 samples.

Results

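Transcripts of the medial intestine were set against those of non-intestinal tissue from the same animals in the planarian flatworm Schmidtea mediterranea. The comparison used 8 of the 12 libraries of the series, 4 of medial intestine and 4 of non-intestine, and the libraries with the same replicate number came from the same animal, so that they form 4 pairs. The other 4 libraries, of lateral intestine, entered only the filter on low counts and the estimate of the spread. Of 28069 transcripts, the 13136 with a CPM (the reads of a transcript scaled to a library total of 1000000) of at least 1 in at least 4 of the 12 libraries were compared.

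All groups shared the same animals and background: uninjured asexual worms of the clonal line CIW4, between 6 and 9 mm long, which had been fed beef liver and starved for 7 days before fixation. Since the line is a clone, the 4 animals share their genotype. Tissue was cut by laser from sections 20 μm thick in the region in front of the pharynx. By the sample records 10 to 20 sections of 1 animal were pooled in a library made from 5 ng of RNA, and the study's methods give a narrower range of sections. Medial intestine was the part of the gut nearest the midline, and non-intestine was what remained around the gut, with all its cell types together. In bulk tissue of this kind, fewer cells of a type and less RNA per cell cannot be told apart.

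The planarian intestine is a blind, branched gut that opens through the pharynx. Its phagocytes take up food particles and digest them inside the cell, its goblet cells secrete enzymes into the lumen, and basal cells lie along its outer side. Visceral muscle surrounds its branches. Around these lie body wall muscle, the nervous system, excretory protonephridia, gland cells, a ciliated epidermis and the parenchyma, which holds the dividing stem cells. Genes are named here after their transcript (dd_66 stands for dd_Smed_v6_66_0_1), with a name used by the study or the best match of the predicted protein in human or another animal. Such matches give the family of a protein and not its function in planarians.

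Libraries held between 20416476 and 29454911 reads in medial intestine and between 20227187 and 32272982 in non-intestine. Between 10891 and 14476 transcripts had a read in medial intestine, against 17095 to 18700 in non-intestine, with no overlap of the groups. Factors of the trimmed mean of M values (TMM), which correct each library for its composition, were 0.765 to 0.923 in medial intestine and 1.21 to 1.5 in non-intestine. Levels below are CPM after that correction unless TPM is named. The r of log2 CPM, taken over transcripts that are no independent replicates, was 0.821 to 0.926 between medial libraries, 0.924 to 0.956 between non-intestine libraries and 0.558 to 0.64 between the tissues.

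In medial intestine 1676 transcripts were raised, 12.8% of those tested, and 1511 were lowered, 11.5% of those tested. Transcripts of digestive enzymes, lysosomal proteins, the proton pump that acidifies lysosomes, solute carriers and enzymes of amino acid and fatty acid breakdown stood among the raised, and transcripts of cilia among the lowered. A transcript was called raised or lowered at a false discovery rate (FDR) under 0.01 over all 13136 transcripts and a difference of more than 2-fold in edgeR's quasi-likelihood test. With the animal in the model as a block, 1591 were raised and 1247 lowered. The median log2 fold change, always medial intestine over non-intestine, was 2.18 for the raised (4.54-fold), and -5.29 for the lowered (39.1-fold), with transcripts without a read in a tissue placed at the limit that their counts allow.

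**Figure D1:**
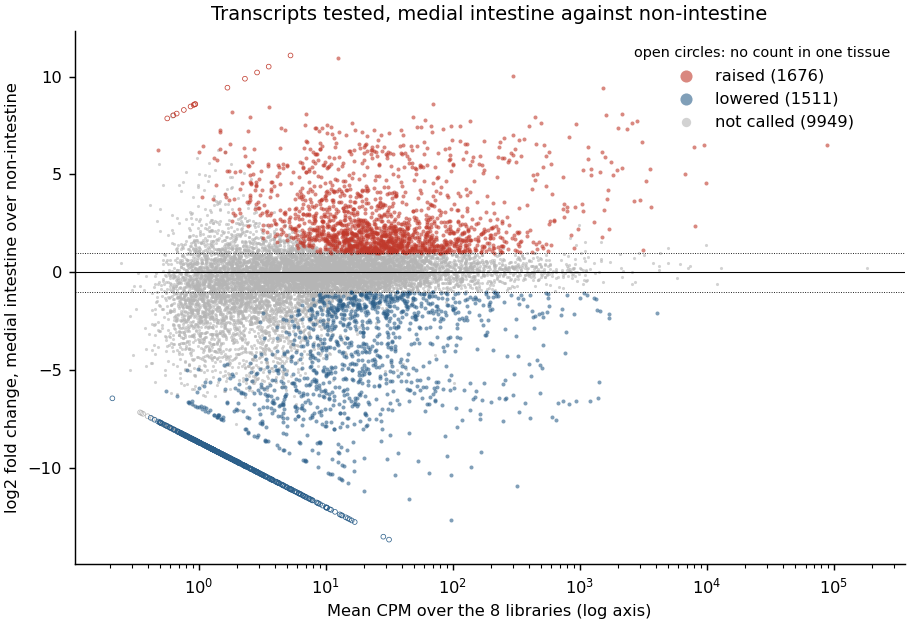
Each point is 1 of the 13136 transcripts, with its mean CPM over the 8 libraries on the horizontal log axis and its log2 fold change (medial intestine over non-intestine) on the vertical axis. Raised (1676) and lowered (1511) transcripts are coloured, and open circles mark transcripts without a count in a tissue, whose fitted values have no finite estimate; the lowered transcripts spread further from 0 than the raised.

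Among the raised, 748 had a log2 fold change between 1 and 2, 358 between 2 and 3, 302 between 3 and 5, and 268 above 5. Among the lowered, the same intervals held 295, 167, 238 and 811. No read was found in medial intestine for 382 of the lowered (25.3%), whereas 13 of the raised (0.776%) had none in non-intestine. Those 382 were found among 440 tested transcripts without a medial read. For such transcripts only a lower limit of the difference can be given, and it is set here against a floor of 3 reads over the 4 libraries of the tissue, which is 0.0372 CPM in medial intestine. Since no molecular identifiers were used, this floor covers counting error only.

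The filter bore on the directions unequally. A transcript made only outside the gut had to reach 1 CPM in each of the 4 non-intestine libraries to be tested, whereas one made only in the gut could pass through any 4 of the 8 intestinal libraries. It was in this way that 741 of the tested transcripts passed through non-intestine alone, of which 453 were lowered, and 240 passed through intestine alone, of which 146 were raised. The direction of the 741, in CPM before the TMM correction, was therefore fixed by the filter, and so in part was their size. Some of the 240 could pass through lateral libraries without reaching 1 CPM in medial ones, so their direction was not always fixed. Among the transcripts with at least 1 CPM in some library of the other tissue, 1058 of 12395 were lowered, with a median log2 fold change of -3.64, and 1530 of 12896 raised, with a median of 2.03.

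A further 773 transcripts were more than 2-fold higher in medial intestine and 2364 more than 2-fold lower without passing the FDR threshold. The lower ones pointed the same way in all 4 pairs in 1920 cases, at a median of 4.31 CPM in non-intestine. Calls also followed the level of a transcript. Below a mean of 1 CPM over the 8 libraries 0.974% of transcripts were raised, and the share was 5.04% from 1 to 10 CPM, 21.6% from 10 to 100 CPM, 27.2% from 100 to 1000 CPM and 39.2% above that. The lowered made up 11.9%, 9.55%, 13.4%, 14.4% and 12.7% of the same intervals.

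The scaling of the libraries moved the split between the directions. In edgeR's test 52.6% of calls were raised with TMM, 45.4% with the RLE factors of DESeq2, 46.2% with upper quartile factors and 25.1% with no composition factors, where 954 transcripts were raised and 2854 lowered. With another test as well, the share was 41.7% in DESeq2 and 39.6% in limma-voom. The median log2 fold change of all transcripts tested was -0.167 with TMM, and it was displaced by -0.702 without factors. No transcript changed from raised to lowered, or from lowered to raised, in any of the settings tried.

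The 4 animals gave the same direction for nearly all called transcripts. Of the raised, 1651 (98.5%) were higher in medial intestine in all 4 pairs, where 22.6% of all tested transcripts were. Of the lowered, 1510 (99.9%) were lower in all 4 pairs, where 32.7% of all tested transcripts were. All 4 medial libraries lay above all 4 non-intestine libraries for 1637 of the raised (97.7%, against 18.4% of all tested), and all 4 lay below for 1508 of the lowered (99.8%, against 26.5%). These shares describe transcripts called on the same 8 libraries and are not an independent check.

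**Figure D2:**
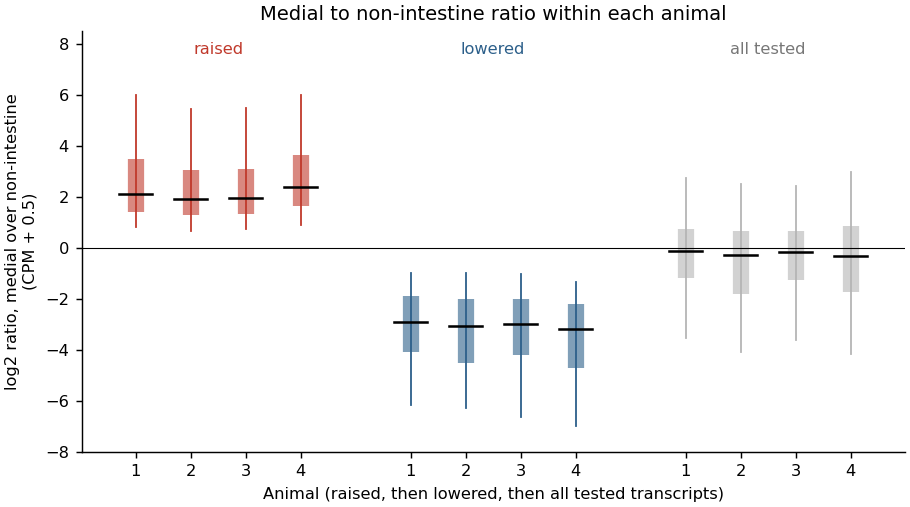
The log2 ratio of medial intestine over non-intestine (CPM with 0.5 added) is drawn for each of the 4 animals, separately for raised, lowered and all tested transcripts. Boxes span the middle quartiles, lines the 5th to 95th percentile and black marks the median, which lay between 1.92 and 2.39 for the raised and between -3.2 and -2.92 for the lowered in the 4 animals.

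The median size of the difference was also alike between animals. The median log2 ratio of the raised, with 0.5 CPM added to each side, was 2.13, 1.92, 1.94 and 2.39 in animals 1 to 4, and that of the lowered was -2.92, -3.07, -2.97 and -3.2. Over all tested transcripts it was -0.129, -0.264, -0.158 and -0.332. The SD of the 4 ratios of a transcript had a median of 0.509 for the raised, 0.546 for the lowered and 0.676 for all tested. The calls were made on these same libraries and favour a small spread, so these values are a description. The added 0.5 CPM shrinks the ratios of transcripts with few or no medial reads. The medians of the lowered are therefore smaller in size here than the fitted one.

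A pair that had no part in the calls gave a check on direction. When an animal was left out and the calls made on the other 3, 1315, 1498, 1361 and 1390 transcripts were raised without animals 1 to 4, and 99.7%, 96.33%, 99.41% and 99.5% of them were higher in medial intestine in the animal left out. More than 2-fold higher in it were 90.9%, 83.1%, 88.6% and 91.9%. The lowered numbered 686, 972, 664 and 760, of which 100.0%, 97.22%, 99.1% and 99.34% were lower in the animal left out. Of all tested transcripts, between 42.5% and 45.8% were higher and between 54.1% and 57.4% lower in a single pair. Animal 2 gave the lowest agreement in both directions. The numbers lowered without an animal lay well below 1511. Leaving out a whole animal left 56 to 69 of the 382 transcripts without a medial read above the filter, since 3 non-intestine libraries could no longer meet the minimum of 4. With the minimum set at 3 libraries, chosen after the data were seen, 851, 1290, 814 and 966 were lowered without animals 1 to 4. Leaving out non-intestine replicate 1, 2, 3 or 4 alone gave 973, 860, 1018 and 831.

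The exceptions were few. Of the 25 raised transcripts that were higher in only 3 pairs, 17 went the other way in animal 2, 4 in animal 3, and 2 each in animals 1 and 4. A homolog of CMBL, a hydrolase (dd_2062), was the most abundant of these by mean CPM, with 110, 38.2, 95.1 and 90.6 CPM in medial intestine and 43.9, 41.9, 43.3 and 24.0 CPM in non-intestine. Its groups overlapped, because the medial library of animal 2 lay below 3 non-intestine libraries. Its log2 fold change of 1.13 ± 0.29 (SE; FDR 0.00715) depended on the scaling, and was 0.38 in edgeR's test with no composition factors (FDR 0.319). Its deposited TPM, which carries no composition factor and also takes in transcript length, averaged 65.2 in medial intestine and 65.3 in non-intestine. Both dd_2277, matched to TRAF6, and the unnamed dd_3459 had the same pattern, with 16.8 and 13.0 CPM in medial replicate 2 against at least 30.8 and 34.8 CPM in the other medial libraries. These 3 calls did not hold in 20, 21 and 22 of 27 other settings. Of the lowered, only dd_9856 went the other way in an animal, with 8.81, 7.6, 19.9 and 12.6 CPM in medial intestine and 29.0, 30.4, 18.8 and 46.1 CPM in non-intestine, and its call did not hold in 14 of 27 other settings.

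Raised transcripts made up much of the RNA of the medial intestine. They took 43.5%, 41.5%, 47.5% and 51.3% of the reads of the medial libraries (46.0 ± 4.35%, SD, n = 4) and 6.84%, 6.17%, 7.64% and 5.67% of those of the non-intestine libraries (6.58 ± 0.854%, SD, n = 4). Lowered transcripts took 2.16%, 2.51%, 1.76% and 1.51% of the reads in medial intestine and 19.9%, 17.5%, 19.3% and 17.6% in non-intestine. The groups did not overlap in either share. These shares were measured on the libraries that chose the transcripts and are a description.

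**Figure D3:**
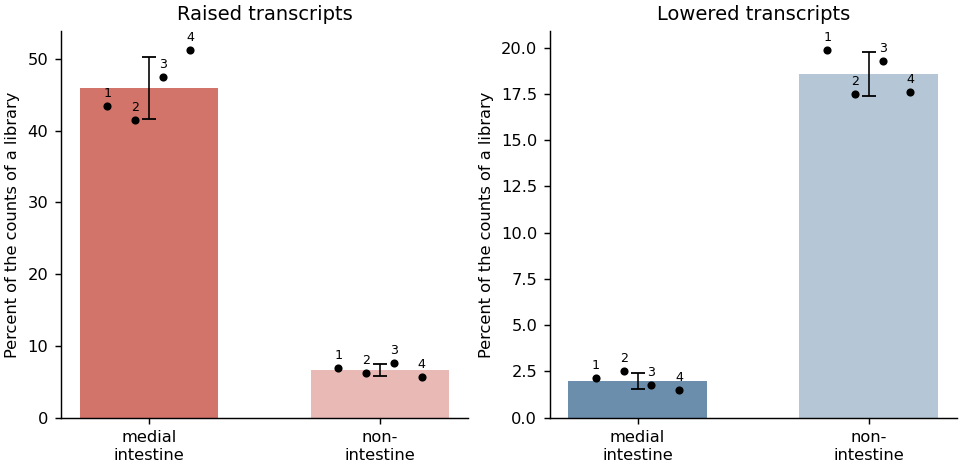
The share of each library's reads, in percent, that fell on raised and on lowered transcripts is shown for the 4 medial intestine and the 4 non-intestine libraries. Raised transcripts held 41.5% to 51.3% of medial reads and 5.67% to 7.64% of non-intestine reads. Bars are means, error lines the SD over the 4 libraries, and points the single libraries with their replicate number.

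A few transcripts held much of this RNA. In medial intestine 21, 36, 19 and 35 transcripts together held the first 50% of reads, against 113, 67, 129 and 67 in non-intestine. The unnamed transcript dd_1 alone took 12.2%, 11.8%, 17.4% and 16.9% of medial reads and 0.156%, 0.213%, 0.471% and 0.232% of non-intestine reads. Another unnamed transcript, dd_7, took 23.0%, 13.2%, 18.8% and 9.62% in medial intestine and 19.7%, 27.0%, 16.5% and 26.7% in non-intestine, and it was not called (log2 fold change 0.22 ± 0.39, FDR 0.7).

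Per length, in the TPM that the authors deposited, the raised had a median of 19.3 TPM in medial intestine and 7.73 TPM in non-intestine. For the lowered these medians were 0.326 and 20.0 TPM, and for all tested transcripts 3.22 and 7.9 TPM. Of the 20 transcripts with the highest TPM in medial intestine 13 were raised and none lowered, and of the 20 highest in non-intestine 1 was raised and 7 lowered. The raised one was dd_1, first in medial intestine with 301000 TPM and in place 16 in non-intestine with 7220 TPM. Reads came from the 3′ end of transcripts, so that dividing by length favours short transcripts such as dd_1 (416 nt) in TPM. By reads, dd_7 lay above dd_1 in medial replicates 1, 2 and 3 and below it in replicate 4. A study name or a protein match was held for 1185 of the raised and for 133 of the lowered. Names came from the study's lists of intestinal transcripts and from a part of its table of human homologs. That part follows the order of the transcript identifiers. The lowered are therefore described less fully here.

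Markers of the intestine and its cell types were higher in every medial library than in any non-intestine library. A homolog of hepatocyte nuclear factor 4 (hnf-4, dd_1694), a nuclear receptor of gut and liver in vertebrates, had 159, 178, 198 and 170 CPM in medial intestine and 44.4, 41.5, 38.7 and 40.6 CPM in non-intestine. The homeobox factor nkx2.2 (dd_2716) had 82.6, 84.7, 95.4 and 114 CPM in medial intestine and 2.12, 1.52, 2.25 and 3.24 CPM in non-intestine. The endodermal factor gata4/5/6 (dd_4075) had 24.5, 14.1, 36.0 and 24.5 CPM in medial intestine and 1.73, 2.63, 2.7 and 2.93 CPM in non-intestine. In these 3 the groups did not overlap, and the log2 fold changes were 2.09 ± 0.13, 5.37 ± 0.27 and 3.31 ± 0.31 (SE; FDR 4.34e-08, 5.27e-09 and 2.17e-06). Of these factors hnf-4 kept the highest level in non-intestine.

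All 3 cell types of the gut were represented by markers of the study. Its goblet and basal cell markers are among the transcripts it found enriched in these same samples, so their direction is not independent evidence. The phagocyte marker ctsla (dd_267), a cathepsin L homolog and so of a family of lysosomal proteases, had 2470, 2420, 1480 and 2770 CPM in medial intestine and 43.1, 43.8, 58.2 and 21.7 CPM in non-intestine. The goblet cell marker npc2 (dd_73), of a family that binds cholesterol in mammals, had 2140, 1590, 3090 and 2380 CPM in medial intestine and 38.9, 22.5, 14.7 and 31.7 CPM in non-intestine. The basal cell marker slc22a6 (dd_1159), an organic anion transporter in mammals, had 131, 115, 182 and 166 CPM in medial intestine and 2.76, 6.44, 5.51 and 5.33 CPM in non-intestine. None of the groups overlapped, and the log2 fold changes were 5.78 ± 0.38, 6.41 ± 0.35 and 4.89 ± 0.35 (SE). A pair of further markers, pi16 (dd_2021) of goblet cells and zgc:172053 (dd_10_1) of basal cells, had log2 fold changes of 7.78 and 4.58. Homologs of apolipoprotein B, which carries lipids out of gut and liver cells in vertebrates, averaged 3120 ± 625 CPM in medial intestine and 53.3 ± 7.03 CPM in non-intestine for apob-1 (dd_636), and 2930 ± 669 and 40.7 ± 2.87 CPM for apob-2 (dd_194) (SD, n = 4).

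Gland cells around the pharynx gave a low signal in both tissues. Of their markers, muc-like-2 (dd_18786) had 1.02, 1.06, 1.9 and 3.41 CPM in medial intestine and 1.73, 6.39, 0.587 and 27.2 CPM in non-intestine, with overlapping groups (FDR 0.0747). Neither muc-like-1 (dd_17988) nor muc-like-3 (dd_21309) passed the filter. Their reads were spread unevenly over the libraries, with 0, 0, 16 and 486 reads of muc-like-1 in medial intestine and 5, 358, 11 and 337 in non-intestine.

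**Figure D4:**
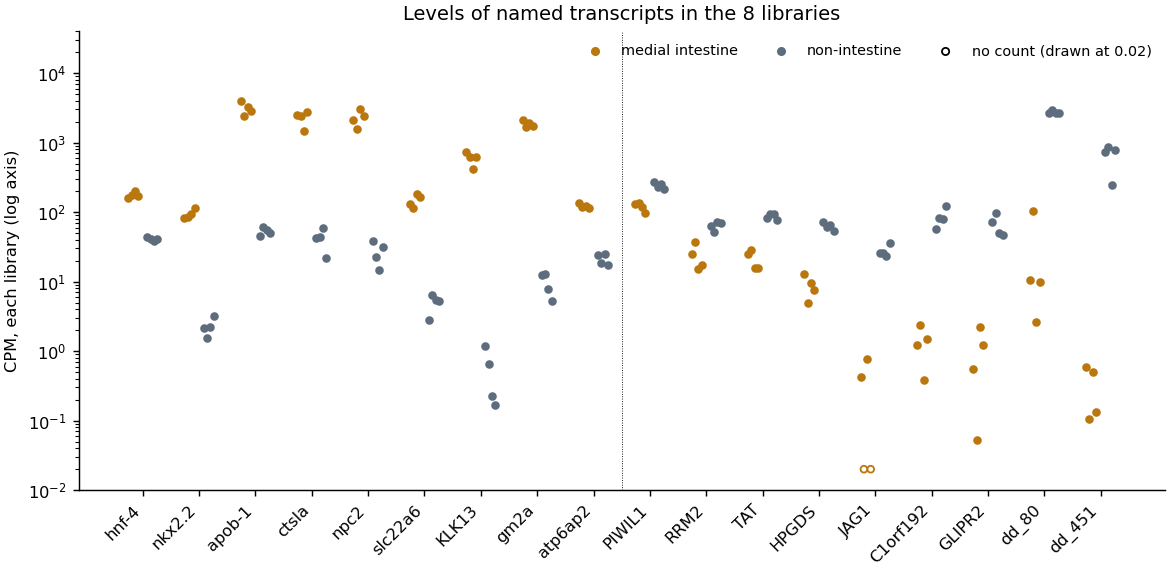
Points give the CPM (vertical log axis) of each medial intestine and non-intestine library for 9 raised transcripts, left of the dotted line, and 9 lowered ones, right of it, with medial intestine on the left of each pair. Open circles near the lower edge mark the 2 medial libraries without a read of JAG1, and the groups did not overlap for any of the 18 transcripts shown.

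Transcripts of secreted and digestive enzymes were among the most strongly raised. A match of the serine protease KLK13 (dd_66) had 721, 621, 419 and 630 CPM in medial intestine and 1.2, 0.651, 0.228 and 0.169 CPM in non-intestine, a log2 fold change of 10.04 ± 0.76 (SE; FDR 2.52e-07). The medial libraries lay far above every non-intestine library. A metalloprotease of the astacin family (cg7631, dd_254) averaged 4280 ± 821 CPM in medial intestine and 15.7 ± 8.97 CPM in non-intestine, and a phospholipase B1 homolog (plb1, dd_2690) 134 ± 17.5 and 0.749 ± 0.717 CPM (SD, n = 4). A pair of matches to the zebrafish gene rpz4 (dd_279 and dd_827) was raised by 7.72 and 8.02 on the log2 scale, and dd_122, whose protein match was remote, by 9.40 ± 0.85. The transcript dd_122 has a near relative in dd_122_1, and since each read was counted once, reads may have been divided between them.

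A match of C10orf11 (dd_2559) had 44.4, 32.3, 16.1 and 36.3 CPM in medial intestine and 0.133, 0.0241, 0.391 and 0.101 CPM in non-intestine (log2 fold change 7.65 ± 0.73). Among the raised without a name, dd_5881 had 159, 142, 103 and 157 CPM in medial intestine and 0.664, 0.289, 0.326 and 0.135 CPM in non-intestine. The 3 most abundant after dd_1 were dd_10_1, dd_75 and dd_44, which averaged 19100, 18900 and 15700 CPM in medial intestine and 800, 211 and 183 CPM in non-intestine. A homolog of cytoplasmic actin (ACTB, dd_3) followed, with 13600 ± 1670 CPM in medial intestine and 2670 ± 423 CPM in non-intestine (SD, n = 4).

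The digestive transcripts that the study listed for uptake, digestion and lipid handling were raised in 69 of 74 cases, with none lowered and a median log2 fold change of 2.05, against 12.8% raised over all tested. The study drew that list, and the 5 study lists below, from transcripts it found enriched in these same samples, so their direction is not independent evidence. For those 5 as well, 12.8% raised is the share over all tested. Summed over the list, medial libraries held 18900 to 25400 CPM and non-intestine libraries 2590 to 2970 CPM. With no composition factors 42 of the 74 were raised. The member nearest to 0 was a nidogen match (dd_13292), at a log2 fold change of 0.41 and not called. A gastric lipase homolog (lipf, dd_257), of a family that cleaves dietary fat, had 3181, 3070, 4500 and 3567 CPM in medial intestine and 105, 119.4, 107.5 and 117.8 CPM in non-intestine (log2 fold change 4.99 ± 0.18). The homolog of acid alpha-glucosidase (gaa, dd_1062), which breaks down glycogen in lysosomes in mammals, had a log2 fold change of 6.10 ± 0.22, with no overlap of the groups. Both were chosen for mention after their values were seen, as were all list members below that do not have the largest change of their list.

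Lysosomal transcripts were raised together with the pump that acidifies the lysosome. All 9 tested homologs of subunits of the vacuolar proton ATPase were raised, against 12.8% of all tested transcripts, with log2 fold changes from 1.64 to 2.53. The largest was that of the accessory subunit atp6ap2 (dd_1067), with 136, 118, 124 and 113 CPM in medial intestine and 24.1, 18.7, 24.6 and 17.4 CPM in non-intestine. The groups did not overlap, and the spread within each tissue was small beside the difference. All 9 stayed raised without any 1 animal, and 8 with no composition factors.

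Of 16 homologs of lysosomal proteins 14 were raised (87.5%, against 12.8% of all tested) and none lowered, with a median log2 fold change of 2.64. The GM2 activator gm2a (dd_214_1), which presents gangliosides to their hydrolase in mammals, had 2090, 1670, 1900 and 1760 CPM in medial intestine and 12.5, 13.0, 7.76 and 5.19 CPM in non-intestine (log2 fold change 7.59 ± 0.35, FDR 2.15e-09). Its medial libraries lay far above every non-intestine library. Also raised were the acid lipase lipa (dd_122_1), by 5.23 ± 0.38, the protease ctsc (dd_219), by 3.22 ± 0.17, and the membrane proteins SCARB2 (dd_2304), MFSD8 (dd_10724) and SLC17A5 (dd_1874), by 2.35, 3.05 and 2.87. The lysosomal sorting receptor M6PR (dd_1365) rose by 1.94 ± 0.18, whereas SORT1 (dd_1666), another sorting receptor, was at 0.49 ± 0.37 and not called. A cathepsin homolog matched to CTSV (dd_175) was lower in medial intestine in all 4 pairs, with 851 ± 237 CPM in medial intestine and 1280 ± 173 CPM in non-intestine (SD, n = 4), and was not called (FDR 0.0549). With no composition factors 11 of the 16 were raised and 1 was lowered.

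**Figure D5:**
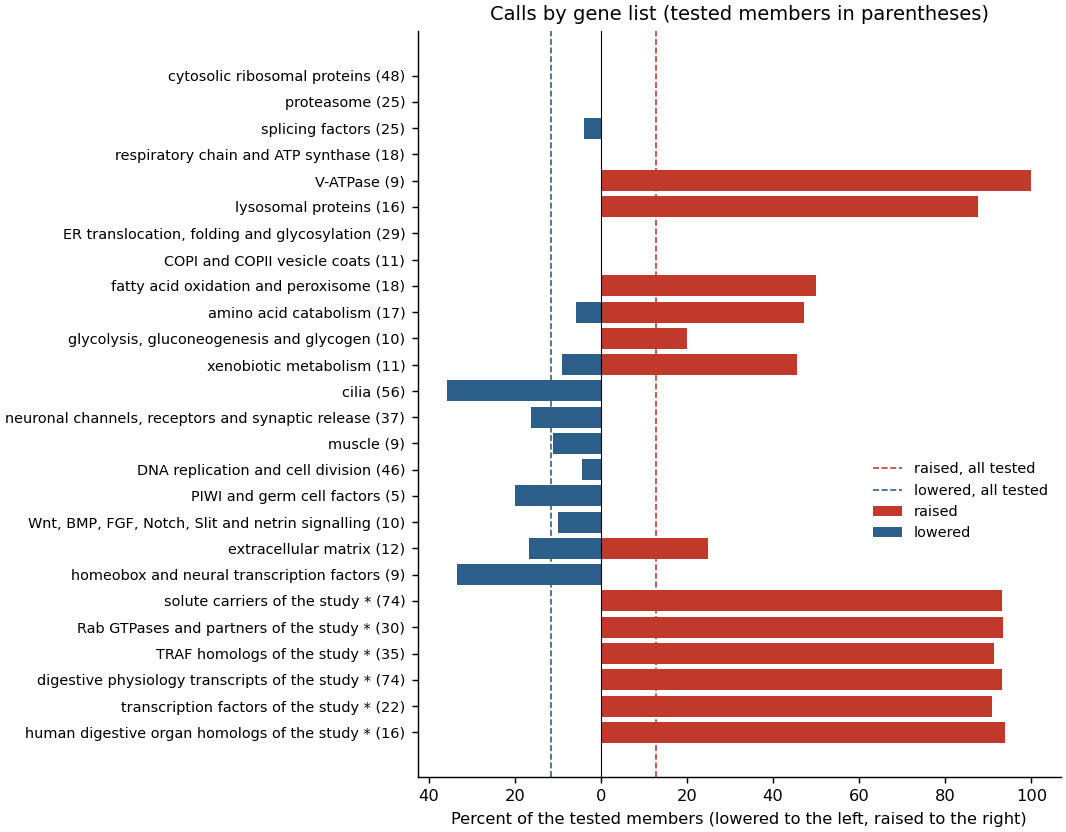
Bars give, for each gene list, the percent of its tested members (number in parentheses) that were raised, to the right, or lowered, to the left, and dashed lines give the percent of all tested transcripts (12.8% raised, 11.5% lowered). All 9 proton ATPase transcripts were raised, no ribosomal or proteasome transcript was called and 20 of 56 ciliary transcripts were lowered; lists with an asterisk were drawn by the study from transcripts enriched in these samples.

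Of the 74 solute carriers that the study listed as enriched in the gut, 69 were raised, with a median log2 fold change of 3.38, and 11 of these had reached 1 CPM in intestinal libraries only. The summed level was 3190 to 3910 CPM in medial intestine and 335 to 444 CPM in non-intestine. A match of the zinc transporter SLC39A1 (dd_10160) had 23.8, 27.1, 19.5 and 29.2 CPM in medial intestine, while in non-intestine a single read was found, in replicate 4 (0.0337 CPM). Carriers matched to SLC13A3 (dd_1171) and SLC46A1 (dd_5528), which move dicarboxylates and folate in mammals, had log2 fold changes of 6.71 and 6.94. A homolog of the zinc carrier SLC39A14 (dd_1731), at 0.40, was the member nearest to 0.

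Small GTPases of the Rab family and their partners, which steer vesicle traffic, were raised in 28 of 30 cases listed by the study, by a median of 2.02 on the log2 scale. The largest change was that of a RAB9B match (dd_6588), with 31.5, 12.5, 15.1 and 29.6 CPM in medial intestine and 0.133, 0.265, 0.0978 and 0.135 CPM in non-intestine. The abundant homologs of RAB1A (dd_488), of early secretion, and RAB7A (dd_419), of late endosomes, changed less, with log2 fold changes of 1.17 and 1.05. The count rested on the scaling and the threshold: 13 of 30 were raised with no composition factors, and 17 when edgeR tested each against a 2-fold change.

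Homologs of the TRAF adaptors, which pass on signals of cytokine and pathogen receptors in mammals, were raised in 32 of 35 cases listed by the study, by a median of 2.45. A member matched to TRAF6 (dd_15049) had 1.45, 4.89, 5.95 and 2.39 CPM in medial intestine and a single read in non-intestine. Another matched to TRAF2 (dd_1308) was far more abundant, with means of 267 CPM in medial intestine and 6.05 CPM in non-intestine. Reads of such families may be divided among similar copies.

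The 22 transcription factors of the study list were raised in 20 cases, with a median log2 fold change of 1.94, and in 13 cases with no composition factors. The largest change among them was of a LIM homeobox factor matched to LHX1 (dd_8252), with 40.3, 33.5, 47.7 and 31.7 CPM in medial intestine and 0.498, 0.0965, 0.228 and 0.236 CPM in non-intestine. Its medial libraries did not approach the non-intestine level in any animal. Factors matched to PTF1A (dd_6869), a regulator of the pancreas in vertebrates, and to GLI3 (dd_7470), of Hedgehog signalling in vertebrates, had log2 fold changes of 4.24 and 1.78. An ELF3 match (dd_8886), at 1.67, and lin-48 (dd_12010), at 1.54, were not called.

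Homologs of genes that mark human digestive organs were raised in 15 of 16 cases listed by the study, by a median of 3.33. Among them the microsomal triglyceride transfer protein MTTP (dd_5671), which loads lipid onto apolipoprotein B in mammals, had 46.65, 32.47, 45.74 and 38.09 CPM in medial intestine and 2.357, 2.146, 2.379 and 1.921 CPM in non-intestine. The acyltransferases MOGAT2 (dd_4947) and DGAT1 (dd_2472), which rebuild triglyceride from absorbed fat in mammals, were raised by 2.76 ± 0.24 and 3.26 ± 0.38. The bile acid carrier slc10a2 (dd_11330) was at 1.42 and not called.

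Enzymes of histidine breakdown were among the raised. The first enzyme of that pathway, hal (dd_2219), had 208, 148.4, 190.9 and 208.8 CPM in medial intestine and 2.091, 4.365, 3.812 and 3.37 CPM in non-intestine. The enzyme after it, uroc1 (dd_1655), had 332.9, 244, 410.3 and 360.9 CPM in medial intestine and 9.494, 8.345, 14.86 and 7.381 CPM in non-intestine. Their log2 fold changes were 5.79 ± 0.25 and 5.07 ± 0.26. An aldehyde dehydrogenase of tryptophan breakdown in mammals (aldh8a1, dd_1621) differed between animals, with 178, 102, 43.5 and 125 CPM in medial intestine, all above the 0.266, 0.748, 1.08 and 0.472 CPM in non-intestine (log2 fold change 7.43 ± 0.73).

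Over the 17 tested enzymes of amino acid catabolism 8 were raised and 1 was lowered, against 12.8% and 11.5% of all tested, with a median log2 fold change of 1.24. The raised included the glycine methyltransferase GNMT (dd_1127), by 4.58 ± 0.37, and cystathionine beta-synthase cbs (dd_1585), by 2.43 ± 0.18. The lowered one was tyrosine aminotransferase (TAT, dd_1073), the first enzyme of tyrosine breakdown, with 24.6, 28.9, 15.9 and 15.6 CPM in medial intestine and 82.2, 93.8, 92.5 and 77.0 CPM in non-intestine. Its groups did not overlap (log2 fold change -2.02 ± 0.24, FDR 1.97e-05). The alpha subunit of propionyl-CoA carboxylase (PCCA, dd_1247) passed the FDR threshold at -0.57 without reaching a 2-fold change.

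Fatty acid oxidation and peroxisome transcripts were raised in 9 of 18 cases and lowered in none, by a median of 1.04. The long-chain acyl-CoA synthetase ACSL6 (dd_2009), which activates fatty acids, had 107, 98.7, 137 and 112 CPM in medial intestine and 3.02, 4.8, 4.72 and 5.33 CPM in non-intestine. The mitochondrial carnitine carrier SLC25A20 (dd_1823), by which fatty acids enter mitochondria, rose by 2.29 ± 0.21. Most other members lay close to the 2-fold threshold, and 5 of the 18 were raised with DESeq2's size factors and 2 with none.

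Enzymes that act on foreign compounds were raised in 5 of 11 cases (45.5%, against 12.8% of all tested) and lowered in 1 (9.09%, against 11.5% of all tested). A cytochrome P450 matched to CYP3A4 (dd_2257) had 105, 48.4, 97.8 and 102 CPM in medial intestine and 11.6, 11.2, 11.8 and 5.59 CPM in non-intestine (log2 fold change 3.14 ± 0.30). Its medial library of animal 2 was the lowest of its tissue and still above every non-intestine library. A prostaglandin D synthase of the glutathione transferase family (HPGDS, dd_1206) was lowered, with 8.74 ± 3.42 CPM in medial intestine and 62.8 ± 7.54 CPM in non-intestine (SD, n = 4). Of 10 tested transcripts of glycolysis, gluconeogenesis and glycogen 2 were raised (20.0%, against 12.8% of all tested). These were the phosphorylase kinase subunit PHKG2 (dd_1020), by 1.90 ± 0.19, and fructose bisphosphatase FBP1 (dd_1709), by 1.22 ± 0.19, while PGAM2 (dd_1742) was lower in all 4 pairs at -0.97.

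Transcripts that every cell uses held few calls. None of 48 ribosomal protein transcripts and none of 25 proteasome transcripts was called by edgeR with TMM, DESeq2 or limma-voom, and 4 of each were lowered in edgeR with no composition factors. At an unadjusted p under 0.05, in edgeR's test, 4 ribosomal transcripts were higher and 2 lower, and 1 proteasome transcript was higher and 1 lower. The medians were 0.01 and -0.00 on the log2 scale with TMM, -0.17 and -0.18 with the RLE factors of DESeq2, and -0.69 and -0.72 with no factors, so their direction followed the scaling. Neither 18 transcripts of the respiratory chain nor 29 of protein folding and glycosylation in the endoplasmic reticulum held a call in edgeR with TMM, with medians of 0.22 and 0.36. With no factors 1 and 2 of them were lowered, and without animal 3, 1 of each was raised. At an unadjusted p under 0.05, 3 and 10 of them were higher and 1 of each was lower, and DESeq2 and limma-voom called none. Of 11 vesicle coat transcripts none was called by edgeR with TMM or by DESeq2, 2 were raised in limma-voom, 1 with the animal as a block, 1 in the likelihood ratio test and 3 without animal 3, and 1 was lowered with no factors, with 6 higher and 1 lower at an unadjusted p under 0.05. Without factors the medians of these 3 lists were -0.49, -0.33 and -0.27.

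The most abundant of the lowered transcripts had no name. In dd_80 the libraries held 10.5, 103, 2.66 and 9.89 CPM in medial intestine and 2680, 2910, 2650 and 2690 CPM in non-intestine. In dd_55 they held 30.3, 179, 11.8 and 3.46 CPM in medial intestine and 2860, 2240, 2880 and 3070 CPM in non-intestine. Replicate 2 was the highest medial library for both, and the non-intestine libraries differed little. The log2 fold changes were -6.44 ± 1.22 and -5.62 ± 1.11 (SE; FDR 0.000942 and 0.00127). The long transcript dd_91 had 2650, 1850, 1450 and 331 CPM in medial intestine and 8170, 6470, 3810 and 7730 CPM in non-intestine, and its smaller difference (-2.06 ± 0.46, FDR 0.003) was not called in 7 of 27 other settings. The other 2, dd_432 and dd_223, averaged 555 and 631 CPM in medial intestine and 2820 and 2800 CPM in non-intestine. Among the lowered with the largest change, dd_451 had 0.596, 0.106, 0.506 and 0.133 CPM in medial intestine and 723, 853, 246 and 770 CPM in non-intestine, and dd_518 averaged 0.159 CPM in medial intestine and 195 ± 52.0 CPM in non-intestine.

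Ciliary transcripts were lowered in part. Of 56 tested homologs of ciliary genes 20 were lowered and none raised, with a median log2 fold change of -4.15, against 11.5% lowered over all tested. In all 4 pairs 49 of the 56 were lower, where 32.7% of all tested were. No read was found in medial intestine for 9 of them, and for 440 of all 13136 tested. In non-intestine libraries only, 16 had reached 1 CPM, of which 8 were lowered, against 453 of 741 over all tested. Of the other 40, 12 were lowered, against 1058 of 12395 over all tested. Summed over the list, medial libraries held 137 to 173 CPM and non-intestine libraries 479 to 662 CPM, and the medial sum came mostly from DYNLRB2 (dd_1126), a dynein light chain that was not called and averaged 98.2 CPM in medial intestine and 114 CPM in non-intestine.

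The transition zone protein TMEM216 (dd_13318), which gates the base of the cilium in vertebrates, had no read in any medial library and 9.1, 9.62, 10.0 and 10.7 CPM in non-intestine (FDR 0.000425). Against the floor of 3 reads over the 4 libraries, which covers counting error only, it was at least 265-fold lower in medial intestine. Its 4 non-intestine libraries were almost level. The transport protein IFT74 (dd_12702) had 4 reads over the medial libraries and 7.58 CPM in non-intestine, and FOXJ1 (dd_10152), the factor that switches on motile cilia in vertebrates, had 0, 0, 0.1265 and 1.109 CPM in medial intestine and 5.876, 9.84, 11.31 and 7.954 CPM in non-intestine. Of the 10 named lowered transcripts with the largest change, DYX1C1 (dd_12396), needed for dynein arm assembly in vertebrates, averaged 0.19 CPM in medial intestine and 12.2 CPM in non-intestine. TTC18 (dd_10893) and LRRC71 (dd_12043) averaged 0.111 and 0.101 CPM in medial intestine and 12.7 and 12.8 CPM in non-intestine. A match of PIBF1 (dd_13444) had 0.34, 0, 0.127 and 0.0443 CPM in medial intestine and 10.1, 13.0, 14.8 and 16.4 CPM in non-intestine.

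The count of ciliary calls rested on the test and the number of animals. It was 13 with the animal as a block, 26 in edgeR's likelihood ratio test, 31 in DESeq2 and 47 in limma-voom. Without 1 animal 5 to 10 were lowered, of 33 to 40 that then passed the filter. The remaining named transcripts with the largest change were LOXHD1 (dd_10460), GLIPR2 (dd_1988), SMKR1 (dd_10158), SYNE1 (dd_15904) and C1orf192 (dd_2157), with log2 fold changes between -6.25 and -5.96. All medial reads of LOXHD1 and SMKR1 lay in replicate 3, so the size of their change rests on that library. The calls of LOXHD1, SMKR1 and SYNE1 did not hold in 4 of 27, 4 of 19 and 8 of 26 other settings. Those of TTC18 and DYX1C1 did not hold in 5 of 27 and 2 of 19. Of the remaining named transcripts GLIPR2 and C1orf192 were the most abundant, with 1.02 and 1.37 CPM in medial intestine and 66.3 and 85.9 CPM in non-intestine.

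Of 37 tested homologs of neuronal channels, receptors and release proteins 6 were lowered (16.2%, against 11.5% of all tested) and none raised, with a median of -1.58, and 24 were lower in all 4 pairs, where 32.7% of all tested were. The highest log2 fold change of the list was 2.87, in a member that was not called. At an unadjusted p under 0.05 in edgeR's test, 1 was higher and 12 were lower. Of the 6, 3 had reached 1 CPM in non-intestine libraries only, so that the filter fixed their direction. Acetylcholinesterase (ACHE, dd_10334) had no read in medial intestine and 2.29, 4.97, 3.16 and 2.83 CPM in non-intestine. Against the floor of 3 reads, which covers counting error only, it was at least 92.9-fold lower in medial intestine. The convertase PCSK2 (dd_1566), which cuts neuropeptides from their precursors, had 6.81, 0.9567, 4.491 and 3.814 CPM in medial intestine and 66.49, 53.61, 49.63 and 61.07 CPM in non-intestine (log2 fold change -3.84 ± 0.63). The other 4 were KCNN3, RIMS1, SLC6A2 and CADPS2. By contrast GNAO1 (dd_1656), an abundant G protein subunit, averaged 210 CPM in medial intestine and 214 CPM in non-intestine and was not called. With the animal as a block 3 were lowered, in limma-voom 14, and without 1 animal 1 or 2.

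Homeobox and neural transcription factors were scarce in both tissues, and 9 of 30 passed the filter. Of these 3 were lowered (33.3%, against 11.5% of all tested) and none raised, and 1 was lowered with the animal as a block. The highest log2 fold change of the list was 3.62, in a member that was not called. At an unadjusted p under 0.05 in edgeR's test, 1 was higher and 4 were lower. The filter fixed the direction of 2 of the 3 lowered, which had reached 1 CPM in non-intestine libraries only. Another member, not called, had reached 1 CPM in intestinal libraries only. The homeobox factor UNCX (dd_22163) had no read in medial intestine and 1.56, 2.19, 0.815 and 3.67 CPM in non-intestine. Against the floor of 3 reads, which covers counting error only, it was at least 55.4-fold lower in medial intestine. Its call, at an FDR of 0.00985, did not hold in 11 of 18 other settings. The basic helix-loop-helix factor ASCL4 (dd_1854) had 25.24, 8.876, 12.84 and 2.838 CPM in medial intestine and 64.04, 55.9, 63.74 and 45.47 CPM in non-intestine. The other was TLX2 (dd_13781), at 0.0426 CPM in medial intestine and 3.18 CPM in non-intestine. Of 10 tested members of the Wnt, BMP, FGF, Notch, Slit and netrin pathways 1 was lowered (10.0%, against 11.5% of all tested), the Notch ligand JAG1 (dd_11876). The count was 2 with the animal as a block, 4 in limma-voom, and 5 in DESeq2 and in the likelihood ratio test. JAG1 had 0.426, 0, 0.759 and 0 CPM in medial intestine and 25.8, 25.5, 23.1 and 35.7 CPM in non-intestine (log2 fold change -6.57 ± 1.01), and the list's median was -1.69.

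Calls among transcripts of muscle and of dividing cells were at or below the 11.5% lowered over all tested. Of 9 muscle homologs 1 was lowered (11.1%), the calcium pump ATP2A2 (dd_1772), with 55.6, 39.0, 30.4 and 30.4 CPM in medial intestine and 87.1, 97.0, 86.7 and 100.0 CPM in non-intestine, and the list's median was -0.44. Of 46 homologs of DNA replication and cell division RRM2 (dd_2286), which makes deoxynucleotides, and PCNA (dd_1920), the sliding clamp of DNA polymerase, were lowered, and the median was -0.81. In RRM2 the libraries held 25.1, 36.8, 15.0 and 17.2 CPM in medial intestine and 62.8, 51.7, 72.8 and 68.6 CPM in non-intestine. Of 5 homologs of PIWI and germ cell factors 1 was lowered (20.0%, against 11.5% of all tested). This was PIWIL1 (dd_1258), of a family that marks planarian stem cells, with 130, 134, 118 and 98.2 CPM in medial intestine and 275, 229, 257 and 218 CPM in non-intestine, a log2 fold change of -1.03 ± 0.18, just past the threshold. Of 25 splicing factor homologs SNRPD1 (dd_1826) was lowered, at -1.13 ± 0.18 (4.0% of the list, against 11.5% of all tested). With no composition factors 11 of the 25 were lowered. The calls of ATP2A2 and SNRPD1 did not hold in 1 of 27 other settings each, of RRM2 in 3 and of PIWIL1 in 4.

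Transcripts of the extracellular matrix went both ways. The lysyl oxidase LOXL2 (dd_10591), which crosslinks collagen in mammals, had 28.9, 20.8, 22.1 and 22.6 CPM in medial intestine and 0.631, 0.0482, 0.0978 and 0.337 CPM in non-intestine, and TGFBI (dd_1505), a secreted adhesion protein, averaged 1124 CPM in medial intestine and 15.62 CPM in non-intestine. With NELL1 (dd_11653, log2 fold change 1.67) these were the 3 raised of 12 tested. Hemicentin (HMCN1, dd_1161), of basement membranes, and the metalloprotease MMP2 (dd_2305) were lowered (16.7%, against 11.5% of all tested), with log2 fold changes of -1.74 ± 0.33 and -1.54 ± 0.34 (SE). Type IV collagen (COL4A5, dd_1579), the main collagen of basement membranes, was not called, with 203 ± 57.4 CPM in medial intestine and 289 ± 78.2 CPM in non-intestine (SD, n = 4).

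Homologs of neuronal, muscle and cell division genes had reads in medial intestine, and markers of the gut had reads in non-intestine. Whether these homologs are particular to a tissue outside the gut was not tested. The summed level in medial libraries was 290 to 334 CPM for the neuronal list, 144 to 180 CPM for the muscle list and 165 to 282 CPM for the list of dividing cells, against 390 to 517, 193 to 225 and 314 to 396 CPM in non-intestine. Much of the neuronal sum was GNAO1, without which it was 75.4 to 132 CPM in medial intestine and 235 to 271 CPM in non-intestine. The part that cells of a neighbouring tissue in a captured region, or RNA carried between regions, had in any of these levels was not tested.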

How the data were processed

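RNA of laser-captured tissue was sequenced from the 3′ end of transcripts (QuantSeq, single-end, without molecular identifiers). The authors trimmed the reads with BBDuk, mapped them with Bowtie2 (2.3.1 in the submitters' processing notes) to 28069 transcripts of the dd_Smed_v6 transcriptome, and deposited raw counts per transcript and library from SAMtools (1.3). The deposited TPM values were made by the authors from these counts and transcript length for the transcripts kept in edgeR 3.8.6, and they carry no composition factor. A further 34 columns of that table, with the authors' CPM, RPKM, fold changes and tests, were not used.

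Transcripts with a CPM of at least 1 in at least 4 of 12 libraries were kept (99.7 to 99.91% of reads), library sizes were recalculated, and TMM factors and edgeR's quasi-likelihood test were applied to the counts of all 12 libraries with tissue as the only term (edgeR 4.0.16 in R 4.3.3; common biological coefficient of variation 0.626). The tissues share animals, so the fit with the animal as a block is given beside the counts of calls. Deviations of same-numbered medial and non-intestine libraries from their group means correlated with an r of 0.0971, 0.0782, -0.0096 and 0.0432 for animals 1 to 4; the pairing rests on the animals and not on this check. P-values were adjusted over all transcripts tested (Benjamini-Hochberg). The SE was derived from the log2 fold change and its F statistic (size over root F) and is approximate. Ratios within a pair used CPM with 0.5 added.

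The transcripts named were the cell type markers; of each gene list, the called member with the largest change in each direction; in each direction, the 10 named and 2 unnamed called transcripts with the largest change among those of the same direction in 4 pairs, with a mean of at least 10 CPM in the higher tissue and at least 4 reads over the lower tissue; the 5 most abundant in each direction; and the 3 most abundant with fewer than 4 pairs in the direction of the call. Of the transcripts that the rule named, 1 is not reported here. Others were chosen after their values were seen. Of the gene lists, 20 were made of 492 human symbols and matched through the 1993 human reciprocal best hits held here, a part of a longer table, and 6 were the study's. The markers, lists and comparisons were chosen with earlier results of these data known. The alternatives were the block, a likelihood ratio test, a test against a 2-fold change (glmTreat), DESeq2 1.42.0, limma-voom (limma 3.58.1), other or no composition factors, other filters, the 8 libraries alone, and leaving out animals or libraries. The main test was tested on simulated counts. Figures and summaries were made in Python 3.11.15 with pandas 2.3.3, numpy 2.4.6 and matplotlib 3.10.9.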

Additional observations from a re-analysis of the deposited data

Results flagged for a closer look

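In 16 of 198 groups of 4 libraries (8.08%) the highest or the lowest library lay far from the other 3, with a gap over the range past Dixon's 95% critical value. For normally distributed values chance gives about 1 such group in 20. Where the other 3 libraries held no read, any read was flagged. This was so for dd_10160 and dd_15049 in non-intestine and for dd_10893, dd_10460, dd_12396 and dd_10158 in medial intestine. The 8.08% can therefore not be set against that rate. The library concerned was medial replicate 2 in 3 cases, medial replicate 3 in 4, medial replicate 1 in 1, non-intestine replicates 3 and 4 in 3 each, and non-intestine replicates 1 and 2 in 1 each.

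In medial replicate 2 2 of the most abundant lowered transcripts were high, dd_80 with 103 CPM against 2.66 to 10.5 CPM in the other medial libraries and dd_55 with 179 CPM against 3.46 to 30.3 CPM, while CYP3A4 (dd_2257) was low at 48.4 CPM against 97.8 to 105 CPM. In medial replicate 3 alone among the medial libraries, reads of 4 lowered transcripts were found, at 0.443 CPM for TTC18 (dd_10893), 1.58 CPM for LOXHD1 (dd_10460), and 0.759 CPM each for DYX1C1 (dd_12396) and SMKR1 (dd_10158). In medial replicate 1 dd_14927 had 23.2 CPM, against 9.94 to 11.6 CPM in the other 3.

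In non-intestine replicate 4 the level was low for CYP3A4 (5.59 CPM, against 11.2 to 11.8 CPM in the other 3) and for CMBL (dd_2062; 24.0 CPM, against 41.9 to 43.9 CPM), and it held the single non-intestine read of SLC39A1 (dd_10160; 0.0337 CPM). Replicate 3 held the single non-intestine read of the TRAF6 match dd_15049 (0.0326 CPM), 0.163 CPM of dd_13694 against 0 to 0.0241 CPM, and a summed level of the study's digestive transcripts of 2970 CPM against 2590 to 2620 CPM. In replicate 1 SYNE1 (dd_15904) had 9.83 CPM against 18.7 to 19.1 CPM, and in replicate 2 dd_80 had 2910 CPM against 2650 to 2690 CPM. What sets these libraries apart was not tested.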

How the results depend on the processing

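The number raised (1676) became 1043 in glmTreat and 954 with no composition factors, and the number lowered (1511) became 2526 in limma-voom and 2854 with no factors. Leaving out animals or single libraries gave 1315 to 1752 raised and 664 to 1592 lowered. The lowered numbered 664 to 972 without a whole animal, and 973, 860 and 831 without non-intestine replicates 1, 2 and 4. With a minimum of 3 libraries in the filter, chosen after the data were seen, 851, 814 and 966 were lowered without animals 1, 3 and 4; the cause was not tested. With the replicate block, 1591 were raised and 1247 lowered, of which 1566 and 1152 were called without it, and 143 of the 382 lowered transcripts without a medial read were still called.

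The share of raised transcripts higher in all 4 pairs (98.5%) was 99.69% with the block, 96.61% in the likelihood ratio test, 97.29% in DESeq2, 99.09% in limma-voom, 99.24% at a minimum of 5 CPM, and 99.87% in the 8 libraries alone. Leaving out an animal or a library left 3 complete pairs, and agreement was then counted over those 3. It was 99.12% to 100.0%, and 100.0% without each animal at a minimum of 3 libraries. These values cannot be set against 98.5%, since agreement in 3 pairs is easier to reach than in 4. The share of lowered transcripts lower in all 4 pairs (99.9%) was 99.28% in DESeq2, 98.61% in limma-voom and 100.0% with the block, in glmTreat and in the 8 libraries alone. On every omission 100.0% were lower in the 3 pairs that remained. Raised transcripts took 40.93% of medial reads with no factors (46.0% with TMM) and 43.34% to 48.58% on omissions. Lowered transcripts took 0.7366% in glmTreat, 6.193% with no factors, 1.498% without animal 3 at a minimum of 3 libraries and 1.571% to 2.238% on omissions.

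Of the 66 called transcripts named by the rule, 19 lost the call in at least 1 of 27 settings, and over all of them 1619 of 1753 values kept direction and call. None changed direction. Single libraries decided calls of low or near-threshold transcripts, as of SMKR1 without medial replicate 1 (FDR 0.012), PIWIL1 without medial replicate 4 (log2 fold change -0.94), dd_91 without medial replicate 3 (FDR 0.0105), SYNE1 without non-intestine replicate 2 or 4 (FDR 0.0103 and 0.0101), and UNCX without each medial library in turn (FDR 0.0153 to 0.0201), all in edgeR. A transcript without a medial read has only the limit that 3 reads allow.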
